A study of Arabidopsis thaliana with 30 samples.

Results

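The enzymes that oxidise or hydrolyse the hormone jasmonate formed a list of 8 Arabidopsis thaliana genes: the jasmonate oxidases JAO1 (AT3G11180), JAO2 (AT5G05600), JAO3 (AT3G55970) and JAO4 (AT2G38240), the cytochromes P450 CYP94B1 (AT5G63450), CYP94B3 (AT3G48520) and CYP94C1 (AT2G27690), and the amidohydrolase ILL6 (AT1G44350). They were chosen by locus for the known function of their products, with no threshold on any value, but with earlier results of these data in view. Of the 8 genes 7 were among the 20404 genes of the deposited tables, and JAO1 was not analysed here. All 7 passed the filter on low values that left 20256 genes for testing, and each did so through mock libraries as well: 6 genes reached a normalized count of 10 in 15 of 15 mock libraries and JAO4 in 13 of 15.

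RNA was sequenced from 7-day-old seedlings of 5 genotypes, a tsk mutant, the mutant h2a.x/w-2 (here XW), affected in both histone variants H2A.X and H2A.W, the mutants h2a.x-1 (here X) and h2a.w-2 (here W), each affected in a single variant, and the wild type Col, each with methyl methanesulfonate (MMS, an agent that alkylates DNA) and without it (mock). Each of the 10 groups had 3 libraries, 30 in all. The series asks how TONSOKU (TSK), a repair protein of replication forks, is brought to chromatin by H2A.X and H2A.W. Dose and duration of the MMS treatment are not in the labels, which call the tissue leaves although whole seedlings were grown, and do not state whether replicates were separate cultures, so the p-values may measure technical spread only.

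Jasmonate is made from plastid fatty acids and is conjugated to isoleucine, and the conjugate (JA-Ile) is the form that the receptor COI1 binds. Binding leads to the destruction of the JAZ repressors and frees transcription factors such as MYC2, which raise genes for jasmonate synthesis, the JAZ genes themselves and genes for jasmonate removal. Removal runs along several routes. The JAO enzymes are dioxygenases that hydroxylate free jasmonate before it can be conjugated, CYP94B1 and CYP94B3 hydroxylate JA-Ile, CYP94C1 oxidises the hydroxylated conjugate to a carboxylated one, and ILL6 cleaves the amide bond of the conjugates.

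The bases before the annotated start are shown for CYP94C1 and JAO4, whose levels differed most between MMS and mock libraries, and for CYP94B3, the gene that differed from Col in every mutant under MMS. In the TAIR10.1 annotation from RefSeq, to which all 8 loci were matched, CYP94C1 is a protein-coding gene without introns at chr2:11809279-11811280 on the plus strand, JAO4 has 3 exons and lies at chr2:16012535-16014991 on the minus strand, and CYP94B3, also without introns, lies at chr3:17974853-17976774 on the minus strand. Each sequence is the 250 bases upstream of the annotated start, written 5′ to 3′ on the gene's strand, at chr2:11809029-11809278 for CYP94C1, chr2:16014992-16015241 for JAO4 and chr3:17976775-17977024 for CYP94B3. Capitals mark CACATG, a variant of the G-box bound by MYC2, and CTTNNNNNNNAAG, the form bound by SOG1, a transcription factor of the DNA damage response.
CYP94C1: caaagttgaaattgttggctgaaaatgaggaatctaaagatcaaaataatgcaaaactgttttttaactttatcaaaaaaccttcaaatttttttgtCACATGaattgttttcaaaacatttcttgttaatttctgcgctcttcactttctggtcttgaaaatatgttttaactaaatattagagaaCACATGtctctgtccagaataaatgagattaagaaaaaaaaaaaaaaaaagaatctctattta
JAO4: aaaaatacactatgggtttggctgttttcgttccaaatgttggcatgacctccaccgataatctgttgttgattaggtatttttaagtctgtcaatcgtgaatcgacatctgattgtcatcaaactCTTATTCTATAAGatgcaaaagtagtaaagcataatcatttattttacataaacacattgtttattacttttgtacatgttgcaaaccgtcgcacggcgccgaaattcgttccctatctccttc
CYP94B3: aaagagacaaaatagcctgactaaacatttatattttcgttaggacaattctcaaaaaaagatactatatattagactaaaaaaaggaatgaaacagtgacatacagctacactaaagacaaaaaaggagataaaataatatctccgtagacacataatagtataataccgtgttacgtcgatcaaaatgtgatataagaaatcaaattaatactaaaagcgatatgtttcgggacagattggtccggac
The CYP94C1 window held CACATG at 2 places, from 153 to 148 and from 63 to 58 bases upstream of the start. The JAO4 window held CTTNNNNNNNAAG from 124 to 112 bases upstream, and the CYP94B3 window held none of the 4 motifs searched. Over the windows of all 8 genes, searched on both strands, CACATG was found in 2 (CYP94C1 and JAO2), against 11.1% of 27443 protein-coding genes; CTTNNNNNNNAAG in 2 (JAO4 and JAO2), against 9.71%; the G-box CACGTG in 1 (JAO1), against 6.49%; and TTGAC, the core bound by WRKY factors, in 2 (JAO4 and CYP94B1), against 44.9%. No motif searched contains another. The JAO2 window overlaps the neighbouring gene AT5G05598 by 243 bases on the same strand, and no gene overlaps the body of any of the 8 genes. These matches describe letters in a window and are not evidence of binding.

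Libraries held 15343687 to 25115027 reads over the listed genes. The transcript of TSK was lower in tsk than in Col, by -1.54 (log2) in mock and -1.33 in MMS libraries, and that of HTA5, which encodes H2A.X, was lower in X by -2.44 and -2.07. None of HTA3 and HTA5 (H2A.X) or HTA6, HTA7 and HTA12 (H2A.W) was lower in XW than in Col, and in W only HTA6 was, by -0.52 in mock libraries. In XW with MMS, HTA5, HTA3, HTA7 and HTA6 were higher than in Col, by 0.23, 0.40, 0.54 and 1.38, and in mock libraries HTA12 was, by 0.45. In W, HTA12 was higher by 0.84 with MMS and 0.48 in mock libraries. Of the 6 genes named here (TSK and the HTA genes), 3 were called higher in W in mock libraries and 3 with MMS. The highest mock difference among them was 1.00. Transcript levels thus did not check the labels of XW and, apart from HTA6, of W, and these names stand for the libraries so labelled. XW mock replicate 1 lay somewhat apart from its group: over all tested genes its log2 values correlated with those of the other XW mock libraries at 0.9861 and 0.9869, against 0.9927 between those libraries. Markers of leaf and of root were all detected in every group, and no marker was at 0. The summed normalized counts of 5 leaf markers were 341137 to 354404 in Col MMS and 685881 to 712722 in Col mock libraries, and those of 7 root endodermis genes were 951.9 to 1141 in Col MMS and 1338 to 1511 in Col mock libraries. In RNA from whole seedlings, fewer cells of a type and less RNA per cell cannot be told apart. The part of these marker differences in the results below was not tested.

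All 7 measured genes were higher with MMS than without it in each of the 5 genotypes, and in every genotype all MMS libraries lay above all mock libraries for all 7. Since the genes were proposed with such results known, this rise is given as a description without p-values. Over all tested genes, 35.5% were called higher with MMS in tsk, 36.2% in XW, 36.3% in X, 36.1% in W and 35.5% in Col, and 35.6% were called lower in Col (limma, adjusted p under 0.05). Libraries with MMS lay wholly above mock libraries for 37.6% of tested genes in tsk, 35.9% in XW, 38.1% in X, 37.3% in W and 37.8% in Col. The median difference over the 7 genes was 3.54 (log2, MMS minus mock) in tsk, 4.39 in XW, 4.18 in X, 4.04 in W and 2.89 in Col, while the median over all tested genes was between -0.00 and 0.01 in each genotype.

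**Figure D1:**
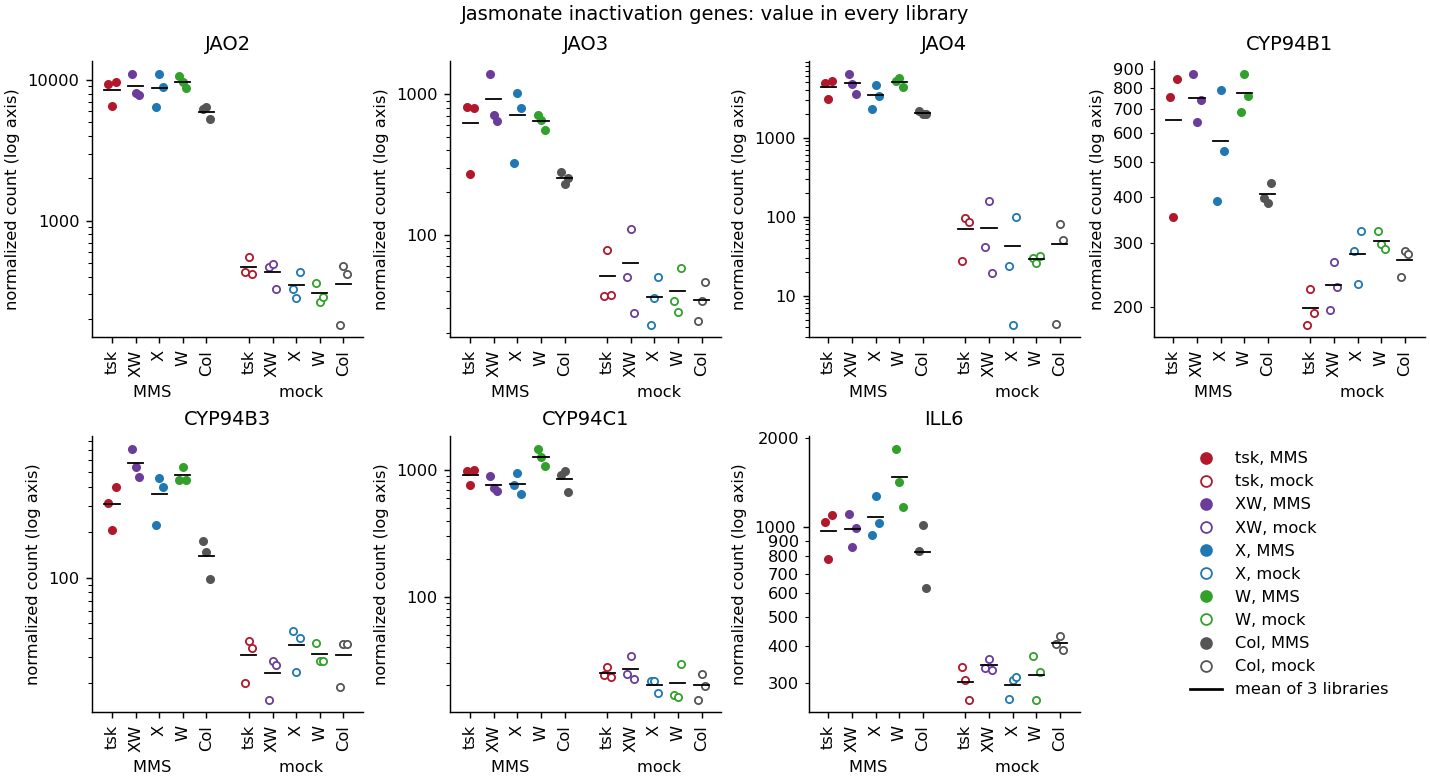
Normalized counts (log axis) of the 7 measured genes in all 30 libraries. Groups run along the x axis, with MMS libraries as filled points on the left and mock libraries as open points on the right, and a line marks the mean of 3 libraries. For every gene and genotype the filled points lie above the open points.

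Among the oxidases, JAO4 had the largest difference. Its normalized counts in tsk were 4857, 3087 and 5217 with MMS, against 27.4, 95.0 and 86.0 in mock libraries. In XW the counts were 6408, 4718 and 3526 with MMS, against 41.1, 155.5 and 19.4 in mock libraries. In X they were 2267, 4583 and 3371 with MMS, against 23.9, 4.30 and 98.4 in mock libraries. In none of these mutants did the MMS libraries overlap the mock libraries. In W they were 5201, 5690 and 4287 with MMS, against 29.7, 26.0 and 31.8 in mock libraries. In Col they were 2158, 1980 and 1965 with MMS, against 4.395, 79.8 and 50.4 in mock libraries. The mock libraries were few in reads and, except in W, far apart within a group, with a lowest count of 4 reads. The difference with MMS was 6.11 in tsk, 6.53 in XW, 7.12 in X, 7.39 in W and 6.17 in Col (log2, SE 0.78 each), and by this measure JAO4 ranked 2, 3, 1, 1 and 3 among all 20256 tested genes in the same order of genotypes.

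JAO2 was the oxidase with most reads. In the mutants with MMS its normalized counts ran from 6472 in X replicate 1 to 11089 in XW replicate 1, against 264.8 in W replicate 2 to 548.7 in tsk replicate 2 without MMS, and the differences were 4.17 in tsk, 4.39 in XW, 4.64 in X and 4.99 in W (log2, SE 0.24). In Col the counts were 6207, 6417 and 5277 with MMS, against 182.4, 476.9 and 416.2 in mock libraries, a difference of 4.16. JAO3 had fewer reads. In the mutants its difference was 3.54 in tsk, 3.98 in XW, 4.18 in X and 4.04 in W (SE 0.45). In Col its counts were 280.0, 230.3 and 253.3 with MMS, against 24.2, 33.5 and 45.7 in mock libraries, a difference of 2.89.

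The make-up of the measured JAO transcripts differed between MMS and mock libraries. Of the summed FPKM (the length-scaled unit of the authors) of JAO2, JAO3 and JAO4, the share of JAO4 was 45.7% ± 1.00 in tsk MMS, 45.8% ± 3.25 in XW MMS, 38.4% ± 1.38 in X MMS, 46.3% ± 2.63 in W MMS and 37.1% ± 1.98 in Col MMS libraries (SD, n = 3 each). In mock libraries it was 18.2% ± 8.02 in tsk, 16.8% ± 11.2 in XW, 13.0% ± 12.0 in X, 12.7% ± 0.982 in W and 13.7% ± 9.28 in Col. JAO2 held the largest mean share in mock libraries, from 68.2% in XW to 74.0% in X, and between 46.4% in XW and 58.6% in Col with MMS. The gene lengths behind the FPKM values are not given in the sources used here. For CYP94B1 and CYP94C1 (below) they did not follow the annotation, so the size of each share is uncertain.

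Of the JA-Ile oxidases, CYP94C1 had the largest difference between MMS and mock libraries. In the mutants its normalized counts with MMS ranged from 645.2 in X replicate 3 to 1478 in W replicate 1, against 16.3 in W replicate 2 to 34.3 in XW replicate 2 without it, with differences of 5.13 in tsk, 4.78 in XW, 5.20 in X and 5.90 in W (log2, SE 0.20). In Col the counts were 922.4, 984.5 and 668.3 with MMS, against 15.4, 24.8 and 19.9 in mock libraries, a difference of 5.36. This is the enzyme that carries the hydroxylated conjugate on to the carboxylated form.

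CYP94B3, which hydroxylates JA-Ile, differed between MMS and mock libraries by 3.27 in tsk, 4.57 in XW, 3.27 in X and 3.90 in W, and by 2.17 in Col (log2, SE 0.30). In Col its counts were 173.9, 147.4 and 98.0 with MMS, against 19.0, 36.7 and 36.3 in mock libraries. CYP94B1, of the same subfamily, was already present without MMS: its counts in Col were 398.8, 386.8 and 438.9 with MMS, against 241.0, 283.8 and 279.0 in mock libraries, which did not overlap. Its difference was 1.62 in tsk, 1.71 in XW, 0.98 in X and 1.34 in W, and 0.61 in Col (SE 0.22), the lowest value of any gene and genotype.

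ILL6, the amidohydrolase, differed between MMS and mock libraries by 1.67 in tsk, 1.51 in XW, 1.86 in X and 2.19 in W, and by 0.98 in Col (log2, SE 0.16). In Col it had 830.1, 1016 and 627.6 normalized counts with MMS, against 407.2, 430.5 and 389.2 in mock libraries. By the deposited FPKM values, ILL6 had the highest mean of the 7 genes in Col mock libraries, 11.9 ± 0.665 FPKM, ahead of JAO2 with 5.26 ± 2.29 and CYP94B1 with 3.37 ± 0.295 (SD, n = 3). CYP94C1 was lowest there, with 0.565 ± 0.135 FPKM. In Col MMS libraries the order was led by JAO2 with 94.9 ± 8.37 and JAO4 with 60.0 ± 3.42 FPKM, followed by CYP94C1 with 26.2 ± 4.77 and ILL6 with 26.1 ± 5.72, which overlapped, and by JAO3 with 6.98 ± 0.754, CYP94B1 with 5.58 ± 0.459 and CYP94B3 with 3.04 ± 0.822. These orders may not hold per annotated length. CYP94B1 and CYP94C1 both lack introns and span 1905 and 2002 bases. Yet in tsk MMS replicate 1 their 917 and 1193 reads gave 10.63 and 30.96 FPKM.

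**Figure D2:**
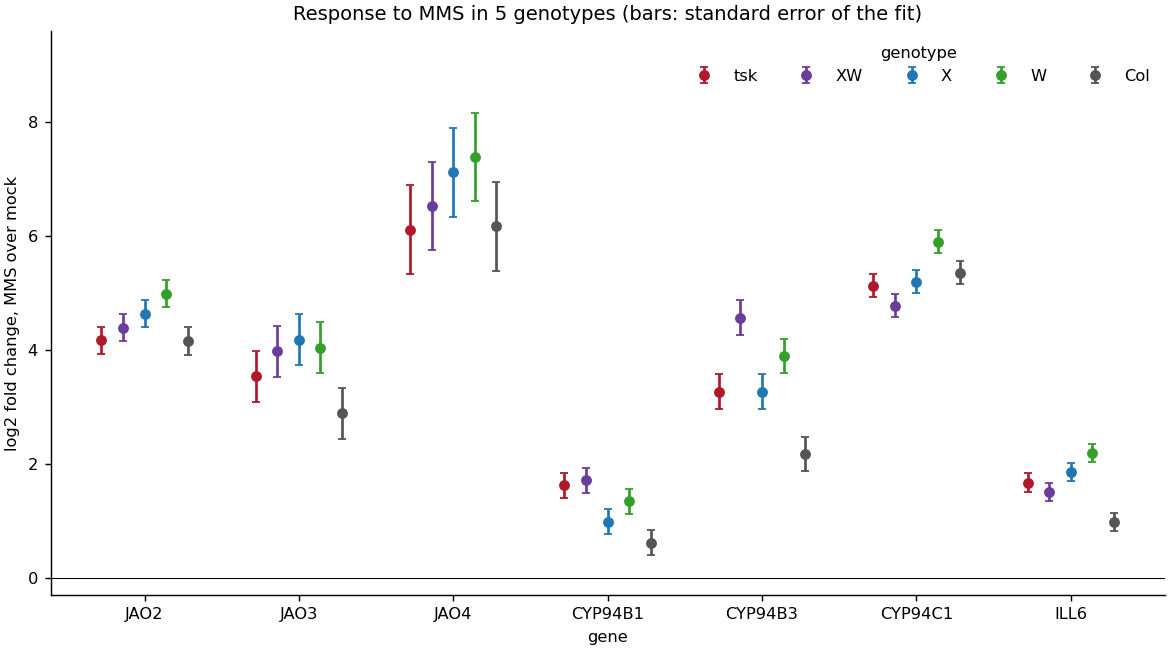
Log2 fold change of MMS over mock for each gene in tsk, XW, X, W and Col, with bars for the standard error of the fit. All values lie above 0, from 0.61 for CYP94B1 in Col to 7.39 for JAO4 in W, and the Col point is the lowest for JAO2, JAO3, CYP94B1, CYP94B3 and ILL6, though for JAO2 it differs from tsk by only 4.16 against 4.17.

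Within the MMS libraries, the mutants were compared with Col. The 7 genes were chosen with earlier results of these data known, so their p-values for mutants against Col are given as description. CYP94B3 rose in all 4 mutants, CYP94B1 in tsk, XW and W, JAO3 in XW and W, and ILL6 in W, and none of the 7 genes was called lower in any mutant. That is 2 genes of 7 in tsk, 3 in XW, 1 in X and 4 in W, where 12.8%, 12.8%, 6.46% and 7.75% of all tested genes were called higher in the same order and 17.5%, 12.5%, 4.50% and 3.93% were called lower. The median difference over the 7 genes was 0.58 in tsk, 0.87 in XW, 0.53 in X and 0.91 in W (log2), against medians over all tested genes of -0.03, -0.00, 0.00 and 0.01. The summed leaf markers with MMS were 281848 to 323254 normalized counts in tsk and 377696 to 401170 in XW. They were 416737 to 456192 in X and 390634 to 480563 in W, against 341137 to 354404 in Col. The root markers summed to 800 to 890 in tsk and 743.7 to 933.5 in XW, all below Col with 951.9 to 1141. They summed to 971.1 to 1093 in X and 1039 to 1187 in W. The part of both marker sets in these differences was not tested. The 4 comparisons share the Col MMS libraries.

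CYP94B3 had normalized counts of 312.2, 208.4 and 401.0 in tsk, 715.3, 540.8 and 463.0 in XW, 224.6, 458.7 and 396.3 in X and 446.2, 542.6 and 444.6 in W, against 173.9, 147.4 and 98.0 in Col, all with MMS. Every mutant library lay above every Col library. The rise over Col was 1.12 in tsk (log2, SE 0.30, adjusted p = 0.0057), 2.04 in XW (adjusted p = 1e-05), 1.33 in X (adjusted p = 0.0042) and 1.80 in W (adjusted p = 0.00019). It was called in all 4 mutants with edgeR and with DESeq2, and leaving out any 1 library kept it under the threshold, with differences between 0.89 and 1.37 in tsk and between 1.81 and 2.22 in XW.

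CYP94B1 had 755.5, 353.6 and 847.1 normalized counts in tsk MMS, 872.1, 643.3 and 741.4 in XW MMS and 684.7, 875.2 and 757.4 in W MMS libraries, against 398.8, 386.8 and 438.9 in Col MMS libraries. XW and W did not overlap Col, while tsk replicate 2 was below all Col libraries. The rise was 0.87 in XW (SE 0.22, adjusted p = 0.0039) and 0.91 in W (adjusted p = 0.006). In tsk it was 0.58 (adjusted p = 0.046), a call that was lost without Col replicate 1 (adjusted p = 0.1), Col replicate 2 (0.12), Col replicate 3 (0.06), tsk replicate 1 (0.21) or tsk replicate 3 (0.3), with the compared groups alone (0.11) and with a replicate block (0.051). In X, with 389.4, 790.4 and 535.8 counts, the difference from Col was 0.43 (adjusted p = 0.23).

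JAO3 had 814.0, 272.3 and 802.7 normalized counts in tsk, 1404, 714.6 and 641.6 in XW, 321.9, 1027 and 796.7 in X and 712.7, 661.7 and 560.1 in W, against 280.0, 230.3 and 253.3 in Col, all with MMS. Only tsk replicate 2 overlapped Col. The rise passed the test in XW (1.76, SE 0.45, adjusted p = 0.004) and in W (1.34, adjusted p = 0.049), while the differences of 1.15 in tsk (adjusted p = 0.052) and 1.33 in X (adjusted p = 0.051) did not. This split depended on the tool: the differences in tsk and X were called with edgeR (adjusted p = 0.0055 and 0.0079), DESeq2 (0.032 and 0.031), a pseudocount of 10 (0.036 and 0.035) and the compared groups alone (0.023 and 0.027), and FPKM values called that in tsk (0.044). In W the call was lost with DESeq2 (adjusted p = 0.059), FPKM values (0.057) and a replicate block (0.058), and also without any 1 of the 3 W or 3 Col MMS libraries, with adjusted p from 0.08 without W replicate 3 to 0.12 without W replicate 1 or Col replicate 2. Without tsk replicate 2 the difference in tsk was 1.67 (adjusted p = 0.0075), and without X replicate 1 that in X was 1.83 (adjusted p = 0.01).

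JAO2 and JAO4 lay above Col in every library of every mutant with MMS but were not called. JAO4 averaged 4387 ± 1140 normalized counts in tsk, 4884 ± 1448 in XW, 3407 ± 1159 in X and 5059 ± 712.3 in W, against 2035 ± 107.3 in Col (SD, n = 3 each). The differences were 1.07, 1.22, 0.69 and 1.31 in that order of mutants (SE 0.78), with adjusted p of 0.32, 0.26, 0.64 and 0.31. The model uses 1 spread per gene over all 30 libraries, the widely scattered mock libraries of JAO4 included. With only the compared groups in the fit, the adjusted p for JAO4 was 0.00051 in tsk, 0.00062 in XW, 0.044 in X and 9.1e-05 in W, and edgeR on the recovered reads called it in tsk, XW and W. JAO2 averaged 8523 ± 1706 in tsk, 8998 ± 1814 in XW, 8791 ± 2261 in X and 9706 ± 1000 in W, against 5967 ± 606.5 in Col, differences of 0.50, 0.58, 0.53 and 0.70 (SE 0.24) with adjusted p of 0.12, 0.079, 0.17 and 0.057. With only the compared groups in the fit it passed in tsk, XW and W, with adjusted p of 0.016, 0.0075 and 0.0018. JAO2 was called in the same mutants with edgeR. Neither gene was called in any mutant with DESeq2, FPKM values, the larger pseudocount, no filter, a replicate block or any 1 library left out.

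CYP94C1 and ILL6 overlapped Col in tsk, XW and X and lay wholly above it in W. CYP94C1 averaged 917.5 ± 137.1 normalized counts in tsk, 768.8 ± 116.9 in XW and 785.2 ± 150.1 in X and 1274 ± 199.1 in W, against 858.4 ± 167.6 in Col (SD, n = 3 each), and all W libraries lay above those of the other genotypes. The difference in W was 0.58 (SE 0.20, adjusted p = 0.063 with limma), and it was called with edgeR (adjusted p = 0.0054) and DESeq2 (adjusted p = 0.0078). ILL6 had 1835, 1420 and 1169 counts in W, against 830.1, 1016 and 627.6 in Col, and rose there by 0.84 (SE 0.16, adjusted p = 0.00064). In tsk, XW and X its differences of 0.25, 0.28 and 0.41 did not pass (adjusted p = 0.24, 0.21 and 0.1), although that in X did without Col replicate 2 (0.57, adjusted p = 0.027).

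Counted without a model, all libraries of the mutant lay above all Col libraries under MMS for 3 of 7 genes in tsk, 5 in XW, 4 in X and 7 in W, against 18.5%, 19.8%, 15.3% and 16.0% of all tested genes. In the order of mean levels with MMS, Col was lowest for 6 of 7 genes, and for CYP94C1 it stood at place 3 of 5. W was highest for JAO2, JAO4, CYP94B1, CYP94C1 and ILL6, and XW for JAO3 and CYP94B3. Between neighbouring mutants in that order the libraries overlapped for every gene except CYP94C1, where W stood apart from tsk.

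**Figure D3:**
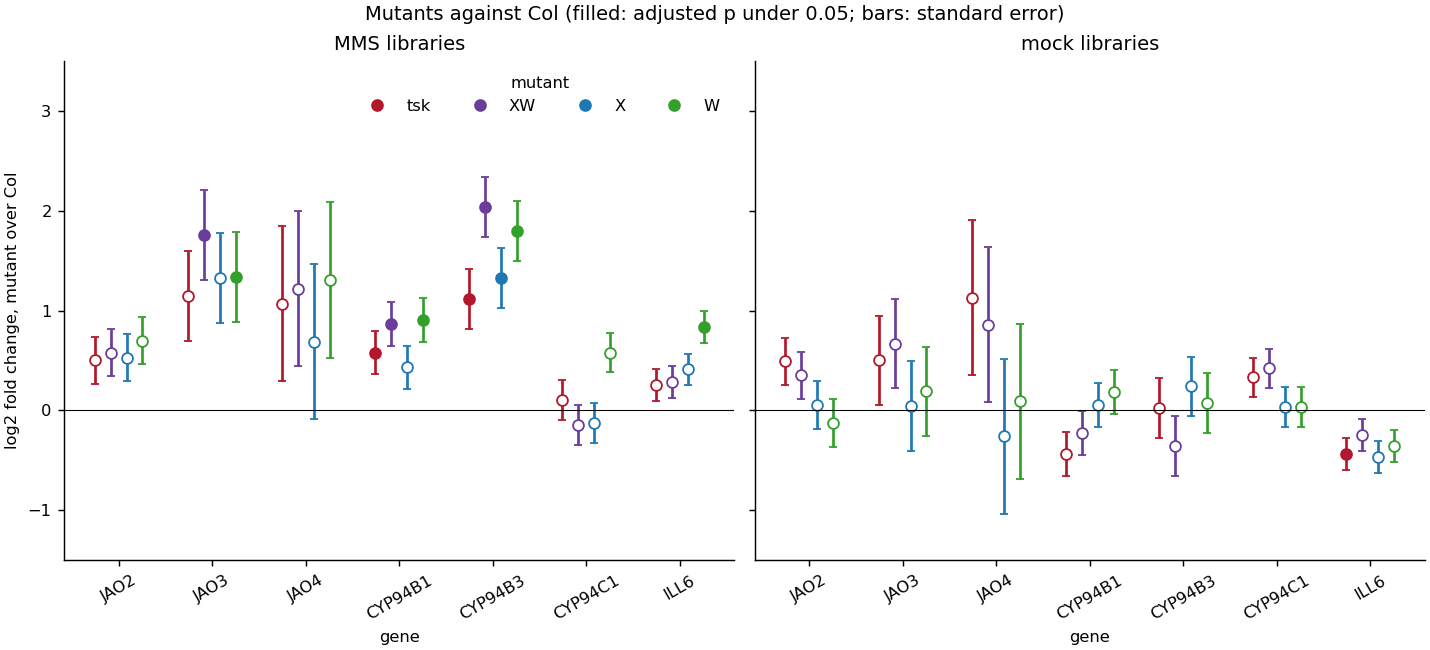
Log2 fold change of each mutant over Col for the 7 genes in MMS libraries (left) and mock libraries (right), with bars for the standard error. Filled points passed an adjusted p of 0.05. CYP94B3 is filled for all 4 mutants on the left, and ILL6 in tsk is the only filled point on the right.

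Without MMS, no member was called higher in any mutant. The counts of 0 in XW, X and W came from limma, and edgeR and DESeq2 also called 0. At an unadjusted p under 0.05, 1 gene of 7 was higher in XW, 1 lower in X and 1 lower in W. Of all tested genes, 10.9% in tsk, 11.8% in XW, 4.29% in X and 6.05% in W were called higher, and 15.1%, 13.5%, 3.20% and 7.08% lower. ILL6 was the exception: its counts were 339.4, 307.5 and 263.9 in tsk, 338.2, 361.5 and 333.4 in XW, 264.6, 306.4 and 313.7 in X and 369.9, 263.7 and 328.1 in W, against 407.2, 430.5 and 389.2 in Col, so that every mutant library lay below every Col library. It fell in tsk (log2 difference -0.44, SE 0.16, adjusted p = 0.043). The differences of -0.25 in XW, -0.47 in X and -0.36 in W had adjusted p of 0.27, 0.067 and 0.14. With the compared groups alone in the fit, those in X and W passed (adjusted p = 0.00072 and 0.043). The call in tsk was lost with edgeR (adjusted p = 0.066) and without Col replicate 1 (0.09), Col replicate 2 (0.12), Col replicate 3 (0.066), tsk replicate 2 (0.08) or tsk replicate 3 (0.19). CYP94B1 in tsk, with 178.2, 224.2 and 192.5 counts, also lay wholly below Col, with a difference of -0.44 (adjusted p = 0.15, or 0.0038 with the compared groups alone). In W, with 322.2, 297.3 and 288.2 counts against 241.0, 283.8 and 279.0 in Col, CYP94B1 lay wholly above Col, with a difference of 0.18 (adjusted p = 0.66). All mutants share the Col mock libraries. How many of all tested genes lay wholly above or below Col in mock libraries was not counted. JAO2 in tsk differed from Col by 0.49 (adjusted p = 0.14), or by 0.75 without Col replicate 2 (adjusted p = 0.034). Leaving out XW mock replicate 1 changed no call in XW, and the differences then ran from -0.23 for ILL6 to 1.00 for JAO4.

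The interaction term tested whether the response to MMS itself differed from that of Col. It was positive with an adjusted p under 0.05 for CYP94B3 and CYP94B1 in XW, ILL6 in X, and ILL6 and CYP94B3 in W. None of the 7 genes passed in tsk. The genes were chosen with earlier results of these data known, so these p-values too are given as description. Of all tested genes 1.37% in tsk, 3.85% in XW, 1.08% in X and 4.40% in W were called with a greater response. The response of CYP94B3 exceeded that of Col by 2.40 in XW (log2, SE 0.43, adjusted p = 0.00037) and by 1.73 in W (adjusted p = 0.012, or 0.051 with edgeR, which did not call it), and by 1.10 in tsk (adjusted p = 0.2) and 1.10 in X (adjusted p = 0.21). In XW it ranked 15 of 20256 tested genes. Without XW mock replicate 1 the value in XW was 2.14 (adjusted p = 0.0018). That of CYP94B1 exceeded Col by 1.10 in XW (SE 0.31, adjusted p = 0.023), a call lost without XW mock replicate 1 (adjusted p = 0.061), XW MMS replicate 1 (0.064), Col mock replicate 2 (0.056), Col mock replicate 3 (0.05) or Col MMS replicate 2 (0.051).

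The response of ILL6 exceeded that of Col by 1.20 in W (SE 0.23, adjusted p = 0.0011) and by 0.88 in X (adjusted p = 0.034). The call in X was lost without any 1 of 10 of its 12 libraries (adjusted p from 0.052 to 0.12), and held without X MMS replicate 1 or Col MMS replicate 2. The count of 0 in tsk was also given by edgeR and DESeq2, and 3 genes were higher at an unadjusted p under 0.05. In tsk, CYP94B1 had a term of 1.01 (adjusted p = 0.081) and ILL6 of 0.69 (adjusted p = 0.11). Without tsk MMS replicate 2 they were 1.41 (adjusted p = 0.0016) and 0.84 (adjusted p = 0.042), and ILL6 also passed without Col MMS replicate 2 (0.85, adjusted p = 0.045). For JAO2 in W the term was 0.83 (adjusted p = 0.15), or 1.26 without Col mock replicate 1 (adjusted p = 0.0061). For CYP94C1 the terms were -0.23 in tsk, -0.57 in XW, -0.15 in X and 0.55 in W, and none passed.

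In several groups the genes deviated together within a library. In tsk MMS, replicate 2 was the lowest library for 7 of 7 genes, in XW MMS replicate 1 was the highest for 7 of 7, and in X MMS replicate 2 was the highest for 7 of 7 and replicate 1 the lowest for 6. In W MMS replicate 3 was the lowest for 6 of 7, and among mock libraries XW replicate 2 was the highest for 7 of 7 and Col replicate 1 the lowest for 6. Other groups were split: in Col MMS replicates 1, 2 and 3 were the highest for 3, 3 and 1 genes. In tsk mock replicate 1 was the lowest for 4 and replicate 3 for 3. The matching shares over all tested genes were not counted. In tsk MMS replicate 2, JAO3 deviated from its group mean by -1.04 on the log2 scale and CYP94C1 by -0.26. JAO4 deviated most among mock libraries, by -2.39 in Col replicate 1 and -2.15 in X replicate 2.

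**Figure D4:**
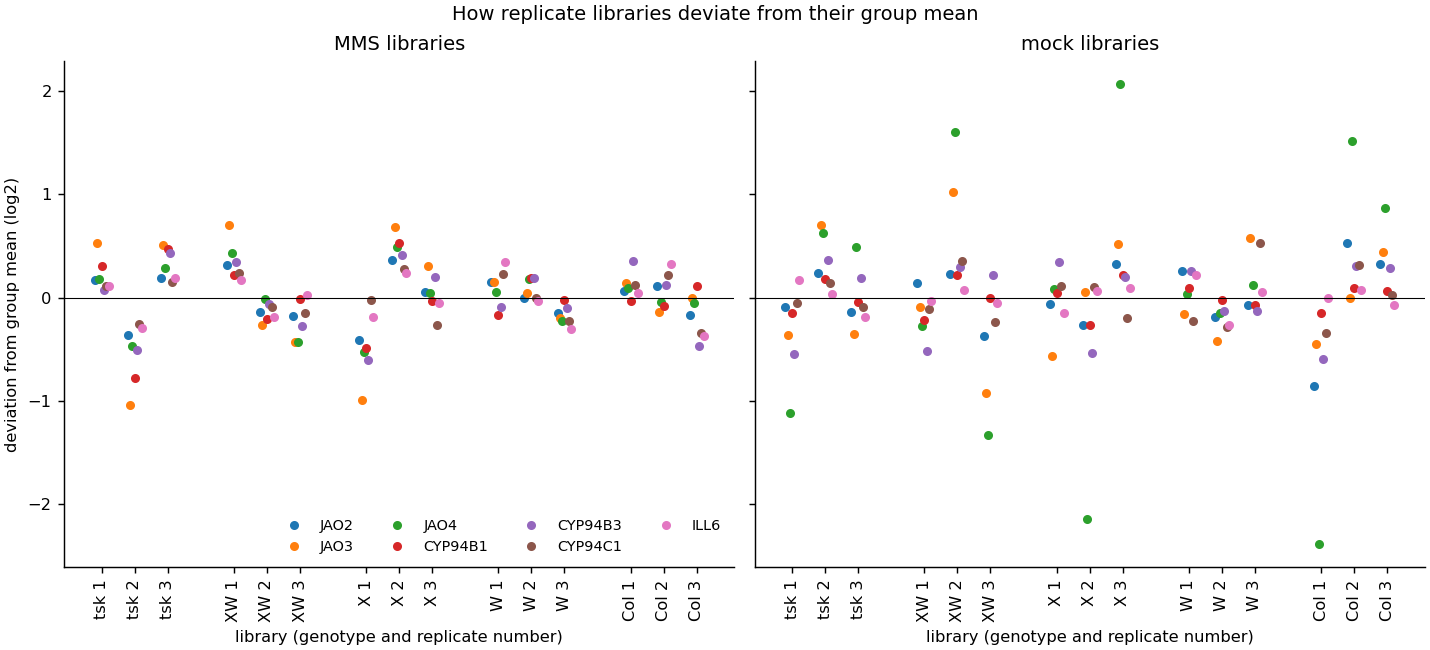
Deviation of each library from the mean of its group (log2 of normalized count + 1) for the 7 genes, MMS libraries on the left and mock libraries on the right. Points of a library lie mostly on the same side of 0, and the JAO4 points in mock libraries reach farthest.

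Over the 30 libraries, which share treatment and genotype, the log2 values of the 7 genes correlated with each other at Pearson's r from 0.859 (CYP94B1 and CYP94C1) to 0.990 (JAO2 and CYP94C1). Among all tested genes, the most similar to JAO2 were ACX1, an acyl-CoA oxidase of jasmonate synthesis (0.992), CYP94C1 (0.990) and RAP2.6 (0.990). CYP94C1 was most like AT3G02070 (0.993), ACX1 (0.991) and TOM3 (0.991), JAO4 like RNS1 (0.981), JAO2 (0.981) and PRN (0.976), and JAO3 like JAO2 (0.967), AT5G16010 (0.967) and GLY3 (0.966). CYP94B3 was most like ASA1 (0.975), AT3G16330 (0.971) and ILR1, an amidohydrolase of auxin conjugates (0.971), CYP94B1 like OCT6 (0.948), GGH1 (0.945) and CYP94B3 (0.942), and ILL6 like AT1G06620 (0.976), AT5G12340 (0.974) and CST (0.972). These values describe likeness of pattern over libraries that MMS splits widely.

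Genes for other routes of jasmonate removal were read alongside. This list and those below were also chosen with earlier results of these data known. Their p-values are therefore given as description. Of 4 such genes in the data, CYP94B2 was removed by the filter on low values and 3 were tested. Of these, ST2A, a sulfotransferase of hydroxylated jasmonate, and IAR3, a second amidohydrolase of jasmonate conjugates, rose with MMS in all 5 genotypes. Between 35.5% and 36.3% of all tested genes were called higher with MMS in the 5 genotypes. ST2A rose by 5.42 in XW (adjusted p = 8.9e-16) and by 3.57 in Col (SE 0.29, adjusted p = 8.4e-12), and its response in XW exceeded that of Col by 1.85 (SE 0.41, adjusted p = 0.0037). IAR3 rose by 1.93 in Col (SE 0.12, adjusted p = 2.3e-14). JMT, which methylates jasmonate, differed by -0.48 in Col (adjusted p = 0.2). Under MMS all 3 were higher in W than in Col, 2 in XW, 1 in X and 0 in tsk. In that order, 7.75%, 12.8%, 6.46% and 12.8% of all tested genes were called higher.

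Genes for jasmonate synthesis moved both ways with MMS. Of 13 tested in Col, 5 rose and 4 fell, with a median difference of -0.02, beside 35.5% of all tested genes called higher and 35.6% lower, so these counts are near the background: ACX1 rose by 1.99 (SE 0.07, adjusted p = 5.3e-19) and AOC3, an allene oxide cyclase, by 1.06 (adjusted p = 2e-06), while LOX2, the main leaf lipoxygenase of the pathway, fell by 2.60 (a log2 difference of -2.60, adjusted p = 7.1e-10). Under MMS 8 of 13 were higher than in Col and 1 lower in tsk, 11 and 1 in XW, 10 and 0 in X, and 11 and 1 in W. In that order, 12.8%, 12.8%, 6.46% and 7.75% of all tested genes were called higher. AOC1 was higher than in Col by 1.61 in tsk, 1.11 in XW, 1.27 in X and 0.89 in W. JAR1, which makes the isoleucine conjugate, was the gene called lower: it differed by -0.46 in tsk, -0.32 in XW and -0.19 in W.

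JAZ repressor genes rose with MMS in 8 of 11 cases in Col and fell in 1, with a median of 0.56 (log2). Of all tested genes in Col, 35.5% were called higher with MMS and 35.6% lower. JAZ7 rose by 4.23 (SE 0.33, adjusted p = 2.6e-12) and JAZ1 by 2.79 (adjusted p = 5.8e-15), and JAZ4 fell (difference -0.59, adjusted p = 0.0077). Under MMS 7 of 11 JAZ genes were higher than in Col in tsk, 6 in XW, 5 in X and 8 in W, and JAZ4 was lower in each. In that order, 12.8%, 12.8%, 6.46% and 7.75% of all tested genes were called higher. Of 9 genes for perception and transcription 4 rose and 2 fell with MMS in Col. These counts are near the 35.5% higher and 35.6% lower over all tested genes. MYC2 differed by 0.07 (adjusted p = 0.58). Of 3 output genes measured, VSP1 and VSP2, which encode vegetative storage proteins, fell with MMS in Col (differences of -1.40 and -3.10, adjusted p = 2.1e-05 and 1.6e-11), and TAT3, a tyrosine aminotransferase raised by jasmonate, differed by 0.65 (adjusted p = 0.12). TAT3 had few reads, with 5.42 ± 0.640 normalized counts in Col MMS and 3.31 ± 1.80 in Col mock libraries (SD, n = 3 each), and it rose with MMS in tsk (0.85, adjusted p = 0.04), X (1.49, adjusted p = 0.00065) and W (0.98, adjusted p = 0.019). Under MMS TAT3 was higher than in Col by 1.52 in tsk (adjusted p = 0.0022), 3.49 in XW and 1.51 in X, and differed by 1.06 in W (adjusted p = 0.059). VSP2 was higher than in Col by 2.28 in XW, 1.68 in X and 2.37 in W, and differed by 0.17 in tsk (adjusted p = 0.67). The storage protein and lipoxygenase values lie beside the lower leaf markers described above, of which 5 of 5 fell with MMS in Col. Under MMS the leaf markers called higher than in Col were 2 of 5 in XW, 3 in X and 3 in W, and 0 in tsk, where 1 was lower.

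Genes of the touch and handling response were higher in the mock libraries of several mutants, in which no inactivation gene was called higher. In mock libraries 11 of 12 touch genes were higher than in Col in XW, 11 in X, 10 in W and 4 in tsk, with medians of 2.57, 1.41, 1.36 and 0.28 (log2) in that order, and none was lower. Of all tested genes, 11.8% were called higher in XW, 4.29% in X, 6.05% in W and 10.9% in tsk. Examples in XW are ZAT10, a zinc finger repressor (3.99, SE 0.19, adjusted p = 1.6e-15), and the calmodulin-like gene TCH2 (1.77, SE 0.10, adjusted p = 1.1e-13). In the same XW libraries ORA47, a factor that activates jasmonate synthesis genes, was higher by 4.58 (SE 0.34, adjusted p = 2e-11) and TAT3 by 4.20 (SE 0.37, adjusted p = 6e-10), while the median over the 7 inactivation genes was 0.35 with none called. With MMS in Col 11 of 12 touch genes rose and 1 fell, beside 35.5% of all tested genes called higher and 35.6% lower. Under MMS 5 of 12 touch genes were higher than in Col in tsk, 6 in XW, 3 in X and 8 in W, and none was lower. In that order, 12.8%, 12.8%, 6.46% and 7.75% of all tested genes were called higher. The part of handling in either difference was not tested.

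**Figure D5:**
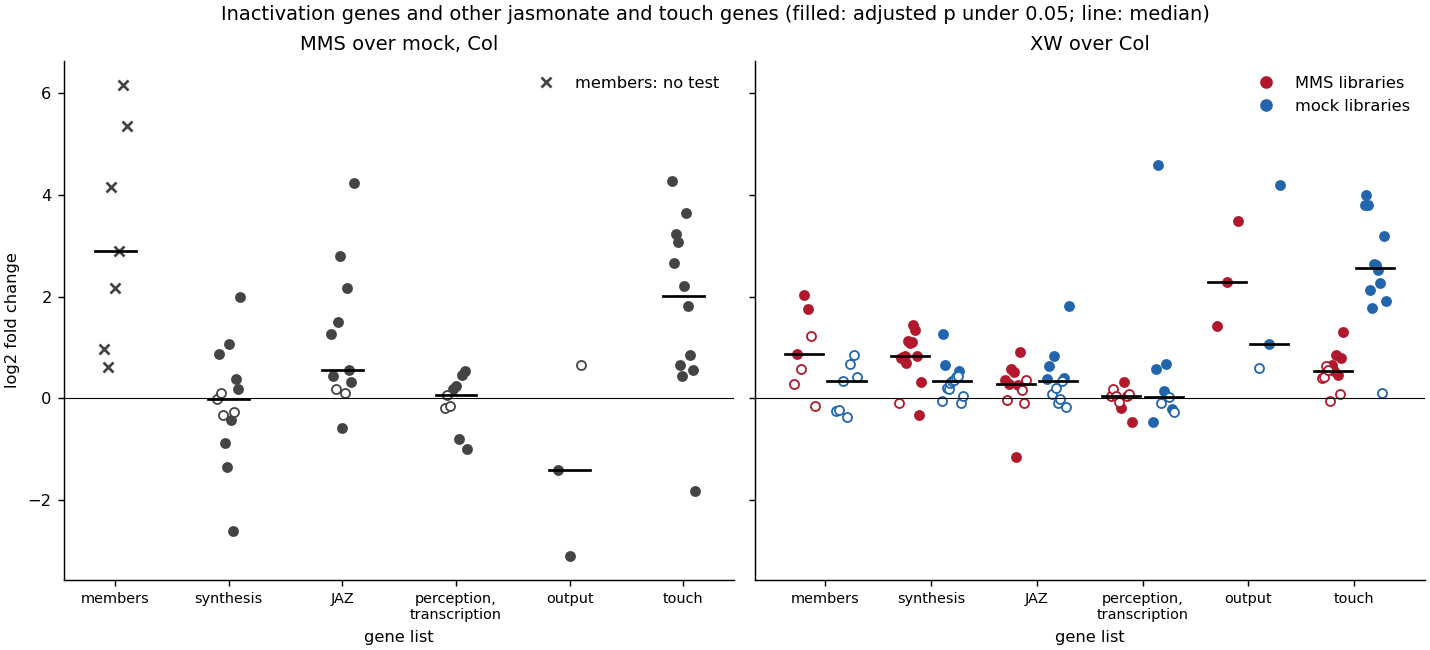
Log2 fold changes of single genes by list, MMS over mock in Col (left) and XW over Col (right, MMS libraries in red and mock libraries in blue). Filled points passed an adjusted p of 0.05, crosses mark the inactivation genes where no test is given, and lines mark medians. On the right the blue touch genes have a median of 2.57 while the blue inactivation genes (members) are all open.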

How the data were processed

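Transcripts were measured in 30 libraries of 10 groups. Per the submitters' processing notes, the authors used STAR, DESeq2 1.30.1 and TAIR10; how reads were counted, the strand and how reads of similar genes were shared are not given in the sources used here, so values of related genes such as the JAO genes are uncertain to that extent. The authors deposited normalized signal (the reads of a gene over the size factor of its library) and FPKM values. In the deposited signal 100% of values were whole multiples of the value of 1 read (tolerance 0.01 of a read), so whole reads were recovered. No deposited gene had 0 reads in any library, so a filter of the authors preceded these tables.

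The main test was limma 3.58.1 with an empirical Bayes trend, under R 4.3.3, on log2(normalized count + 1), because the values are not raw counts. A single model held all 30 libraries with 20 residual degrees of freedom. A gene entered the test if 3 or more libraries reached a normalized count of 10 (20256 genes, 148 removed), p-values were adjusted by Benjamini-Hochberg within each comparison over all of them, and calls were made under 0.05. The scale of log2(value + 1) understates the changes of low genes. edgeR 4.0.16 and DESeq2 1.42.0 ran on the recovered reads as alternatives, beside FPKM with a pseudocount of 0.1, a pseudocount of 10, no filter, the compared groups alone, a block for the replicate number and each library left out. The procedure was tested on simulated data. Depth was 15343687 to 25115027 reads per library.

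The genes and the lists of other jasmonate, touch and marker genes were chosen with earlier results of these data known. Named genes are all members, up to 3 called genes of a list per family of comparisons by smallest adjusted p with their values in other comparisons, the 3 genes most like each member, and the targeted genes. The responses of JMT, MYC2 and JAZ4 to MMS were added after their values were seen. Sequences and positions are from the RefSeq annotation TAIR10.1, in which all 20404 loci of the tables were found.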

Additional observations from a re-analysis of the deposited data

Results flagged for a closer look

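The response to MMS differed from that of Col, by the interaction term of the model, for 5 combinations of gene and mutant. For CYP94B3 the response was greater by 2.40 in XW (log2, SE 0.43, adjusted p = 0.00037) and by 1.73 in W (SE 0.43, adjusted p = 0.012, or 0.051 with edgeR, which did not call it). In XW, CYP94B3 averaged 573.0 ± 129.2 normalized counts with MMS and 23.5 ± 6.92 in mock libraries, and in Col 139.7 ± 38.5 with MMS and 30.7 ± 10.09 in mock libraries (SD, n = 3 each). For CYP94B1 the response was greater by 1.10 in XW (SE 0.31, adjusted p = 0.023). For ILL6 it was greater by 1.20 in W (SE 0.23, adjusted p = 0.0011) and by 0.88 in X (adjusted p = 0.034). In mock libraries ILL6 differed from Col by -0.36 in W and -0.47 in X, and these differences are part of its terms. Neither passed the threshold in the main model, and both did with the compared groups alone (adjusted p = 0.043 and 0.00072). The 4 mutants share the Col libraries. The genes were chosen with earlier results of these data known, so these p-values are given as description.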

How the results depend on the processing

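Over 1715 alternative values of the 119 gene and comparison pairs, 1636 stayed on the same side of the threshold, 41 lost the call and 38 gained it. None reversed direction where either value was called. Changes of direction between values that were both uncalled were not counted. All 7 genes were higher with MMS in all 5 genotypes under every setting that used all libraries. With the compared groups alone, members called against Col numbered 2 in tsk, 1 in X and 1 in W for mock libraries. For MMS libraries they numbered 4 in tsk, 5 in XW, 3 in X and 7 in W. Of 20256 tested genes, this setting called 6807 in tsk, 3177 in X and 3184 in W for mock libraries. For MMS libraries it called 5582 in tsk, 4604 in XW, 1912 in X and 1429 in W. With edgeR the members called were 0 in tsk for mock libraries, and 5 in tsk, 5 in XW, 2 in X and 7 in W for MMS libraries. For the response in W edgeR called 1 member, and CYP94B3 missed the threshold. Over all tested genes edgeR called 5460 in tsk mock, 5952 in tsk MMS, 5232 in XW MMS, 2074 in X MMS and 2291 in W MMS. It called 1325 for the response in W. FPKM values gave 0 members in tsk mock (4515 of all genes), and a pseudocount of 10 and DESeq2 gave 2 in X MMS (2193 and 2068 of all genes). Leaving out a library gave 0 to 1 members in tsk mock, 1 to 3 in tsk MMS and 1 to 2 in X MMS. For the response it gave 0 to 2 in tsk, 1 to 2 in XW and 0 to 1 in X. Over all genes it gave 3964 to 4202 calls in tsk mock, 4965 to 5405 in tsk MMS and 1283 to 2096 in X MMS. For the response it gave 311 to 578 in tsk, 1354 to 1922 in XW and 215 to 597 in X. The cause of these changes was not tested. The compared groups alone leave out the spread of the other libraries, mock libraries of JAO4 among them. Replicate numbers did not pair the samples (correlations from -0.11 to 0.09 in 13 comparisons, none with every pair over 0.1), and a replicate block gave 1 call in tsk MMS (CYP94B1 missing it at adjusted p = 0.051) and removed that of JAO3 in W MMS (0.058). Over all genes, calls moved by more than 1.5 times for X mock (1516, against 3177 with the compared groups alone and 779 to 962 without 1 library), XW mock (5119, 3038 alone), W mock (2661, 1740 without Col mock replicate 1), X MMS (2220, 1283 to 1440 without 1 library), W MMS (2365, 1429 alone), and the responses of XW (1806, 1197 alone), X (403, 823 alone, 215 to 256 without 1 library) and tsk (505, 311 to 336 without 1 library). The share of calls that were higher was 68.8% with FPKM and 41.8% in the main analysis for tsk mock, 61.8% and 42.2% for tsk MMS, 40.7% and 59.0% for X MMS, 48.3% and 66.3% for W MMS, and for the responses 35.0% and 54.3% in X and 41.2% and 62.7% in W; edgeR gave 68.1% and the main analysis 54.9% for the response in tsk, and the compared groups alone 58.3% and 46.7% for XW mock. With FPKM the median of all genes lay at 0.11 in XW and 0.12 in Col for MMS over mock (log2), against which CYP94B1 in Col stood at 0.71. Depth limits JAO4 in mock libraries, where 4 reads were the lowest count.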
